A study of Homo sapiens with 9 samples.

Results

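The 10 genes described here are long noncoding RNA genes, most of which carry microRNAs, and were chosen by name as the rows of the count table for MIR155HG, MIR22HG, MIR17HG, MIRLET7BHG, DLEU2, DLEU1, NEAT1, MALAT1, MIAT and CYTOR. They were 10 of the 59050 gene symbols in the table, and all 10 were among the 13463 genes that passed the filter on expression, a CPM (counts scaled to library size) above 1 in at least 3 samples. The study asked how the transcriptome of chronic lymphocytic leukemia (CLL) cells in a 3D bioprinted hydrogel differs from that of the same cells in conventional culture. RNA of MEC1, an established CLL cell line, was sequenced from 3 samples grown in 2D, 3 samples bioprinted in 3D and collected at day 7 (3D_7d) and 3 bioprinted samples collected at day 14 (3D_14d). All samples are given as the same cell line, under titles that begin with MECPGK, a name that the labels do not explain, and the labels give no culture time for the 2D samples. RNA of the scaffolds was extracted with TRIzol, treated with DNase I and purified on a column, while RNA of the 2D cells was extracted with a column kit, so that culture and extraction cannot be told apart in a comparison of 3D with 2D. The same 2D samples served both of these comparisons.

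Between 54662799 and 85968686 counts were assigned to genes in each sample, and the group medians were 68208856 for 2D, 56649465 for 3D_7d and 56632405 for 3D_14d. The B-cell identity of the line was visible in every sample, since all 10 B-cell markers (among them MS4A1, CD79A, CD79B, CD22, PAX5, CD37, BLK, EBF1 and CD74) had counts in each library, with a summed level between 10457 and 20062 CPM and CD74 as the most abundant. At day 7, 1 of these markers was higher (MS4A1) and 1 lower (CD22) than in 2D, or 2 lower with total counts alone. At day 14, 5 were higher, led by CD79A and CD37, and 1 lower (CD22). The shares of all tested genes were 22.2% higher and 21.2% lower at day 7, and 19.0% and 17.2% at day 14. The 15 markers of other blood cells together reached 2.01 to 3.29 CPM in 2D, 5.02 to 6.18 CPM at day 7 and 7.34 to 11.9 CPM at day 14. The most abundant of them was CD3E in each 2D sample (a mean of 0.763 CPM) and KLRD1 in each 3D sample (means of 2.30 CPM at day 7 and 4.69 CPM at day 14). HBA1 went from 1 to 3 counts per 2D sample to a mean of 1.76 CPM at day 7 and 3.22 CPM at day 14, and CD3D, CD3G, CD68, LYZ, PF4 and PPBP never exceeded 3 counts, whereas CD3E reached 93, CD2 41, CSF1R 41 and CD14 40 counts. The 10 markers of stroma and epithelium summed to 24.0 to 27.8 CPM in 2D, 38.4 to 55.3 CPM at day 7 and 54.9 to 80.2 CPM at day 14. Most of this came from PECAM1, which rose in 3D, while PDGFRB and COL1A1 were lower at day 7 than in 2D, the latter a call lost in 5 of the 16 alternatives. Mitochondrial transcripts took 2.30 to 2.83% of the counts in 2D, 1.44 to 1.64% at day 7 and 1.62 to 2.82% at day 14. The part of these shifts in the results below was not tested. In RNA from whole cultures, fewer cells that express a gene and less of its RNA per cell cannot be told apart.

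A microRNA host gene is transcribed as a long primary transcript from which the DROSHA and DGCR8 complex cuts a hairpin, which is exported and trimmed by DICER1 into the mature microRNA that guides an Argonaute protein to its targets. In B cells, miR-155 acts in the germinal centre response and is abundant in CLL, miR-17-92 promotes survival downstream of MYC, and the miR-15a and miR-16-1 pair inside DLEU2 lies in the region of chromosome 13q14 that is often deleted in CLL. NEAT1 and MALAT1 are abundant nuclear RNAs, NEAT1 as the scaffold of paraspeckles and MALAT1 in nuclear speckles.

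The mature sequences below show which regulators the host genes carry, since the count table measures the long transcripts and not the mature microRNAs. In the sequences available here, from RefSeq (GRCh38.p14), 31 mature sequences from 16 hairpins lay inside 6 of the 10 genes, on the same strand as the host. NEAT1 also holds a hairpin in the count table, MIR612, for which no sequence was available. Capitals mark the seed, bases 2 to 8, which pairs with target messages. The microRNAs of the 2 host genes that were higher in 3D have seeds of their own:
hsa-miR-155-5p: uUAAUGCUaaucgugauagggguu
hsa-miR-155-3p: cUCCUACAuauuagcauuaaca
hsa-miR-22-3p: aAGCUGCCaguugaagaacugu
hsa-miR-22-5p: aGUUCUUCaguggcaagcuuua
Within MIR17HG, miR-17 and miR-20a share a seed, miR-19a and miR-19b share another, and miR-18a and miR-92a each have their own:
hsa-miR-17-5p: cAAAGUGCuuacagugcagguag
hsa-miR-20a-5p: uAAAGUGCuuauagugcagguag
hsa-miR-19a-3p: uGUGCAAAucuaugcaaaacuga
hsa-miR-19b-3p: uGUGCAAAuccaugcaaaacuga
hsa-miR-18a-5p: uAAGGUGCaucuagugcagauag
hsa-miR-92a-3p: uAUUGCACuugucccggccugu
In DLEU2, miR-15a and miR-16 share a seed, as do let-7a and let-7b in MIRLET7BHG:
hsa-miR-15a-5p: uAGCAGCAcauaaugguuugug
hsa-miR-16-5p: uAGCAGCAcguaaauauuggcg
hsa-let-7a-5p: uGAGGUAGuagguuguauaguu
hsa-let-7b-5p: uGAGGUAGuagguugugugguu
The hairpins of MIR155HG, MIR17HG and MIR22HG and both let-7 hairpins of MIRLET7BHG lie in exons of their hosts, whereas those of miR-15a and miR-16-1 lie in an intron of DLEU2. The rows of the exonic hairpins held 0 counts in all 9 samples. A read there falls on the annotation of both genes, so these rows say nothing about the microRNA itself.

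At day 7, 5 of the 10 genes passed the threshold against 2D (edgeR quasi-likelihood test, Benjamini-Hochberg adjusted p of at most 0.05). MIR155HG and MIR22HG were higher, 2 of 10 beside 22.2% of all tested genes, and NEAT1, MALAT1 and MIAT were lower, 3 of 10 beside 21.2%. At day 14, 2 of 10 were higher beside 19.0% of all genes, again MIR155HG and MIR22HG, and 1 of 10 was lower beside 17.2%, MIAT. Between the time points, edgeR called 0 of the 10 genes, beside 14.5% of all genes higher and 13.6% lower at day 14 than at day 7. At an unadjusted p under 0.05 the count was 1, NEAT1, and DESeq2 also called 1, NEAT1. The median log2 fold change of the 10 genes was -0.43 at day 7 and -0.42 at day 14 against 2D, beside medians over all tested genes of -0.0039 and 0.023. The labels do not say whether the 3 samples of a condition were separate cultures, so the p-values measure the spread between these samples, which may be technical. The samples of 3D_14d stood further apart, with a chi-square of counts per gene of 155 to 305 between pairs, than those of 2D (28.4 to 54.1) and 3D_7d (22.5 to 81.9). With groups of 3, the smallest p that an exact 2-sided permutation can reach is 0.1. Scaling by total counts alone, in place of TMM, moves the median of all genes by -0.16 at day 7 and -0.20 at day 14 against 2D and by -0.05 between the time points, so the fold changes given here are relative to the median of all genes. With total counts alone, 2157 genes were higher and 3575 lower at day 7 than in 2D, in place of 2985 and 2853, and 1604 were higher and 3246 lower at day 14, in place of 2557 and 2318.

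**Figure D1:**
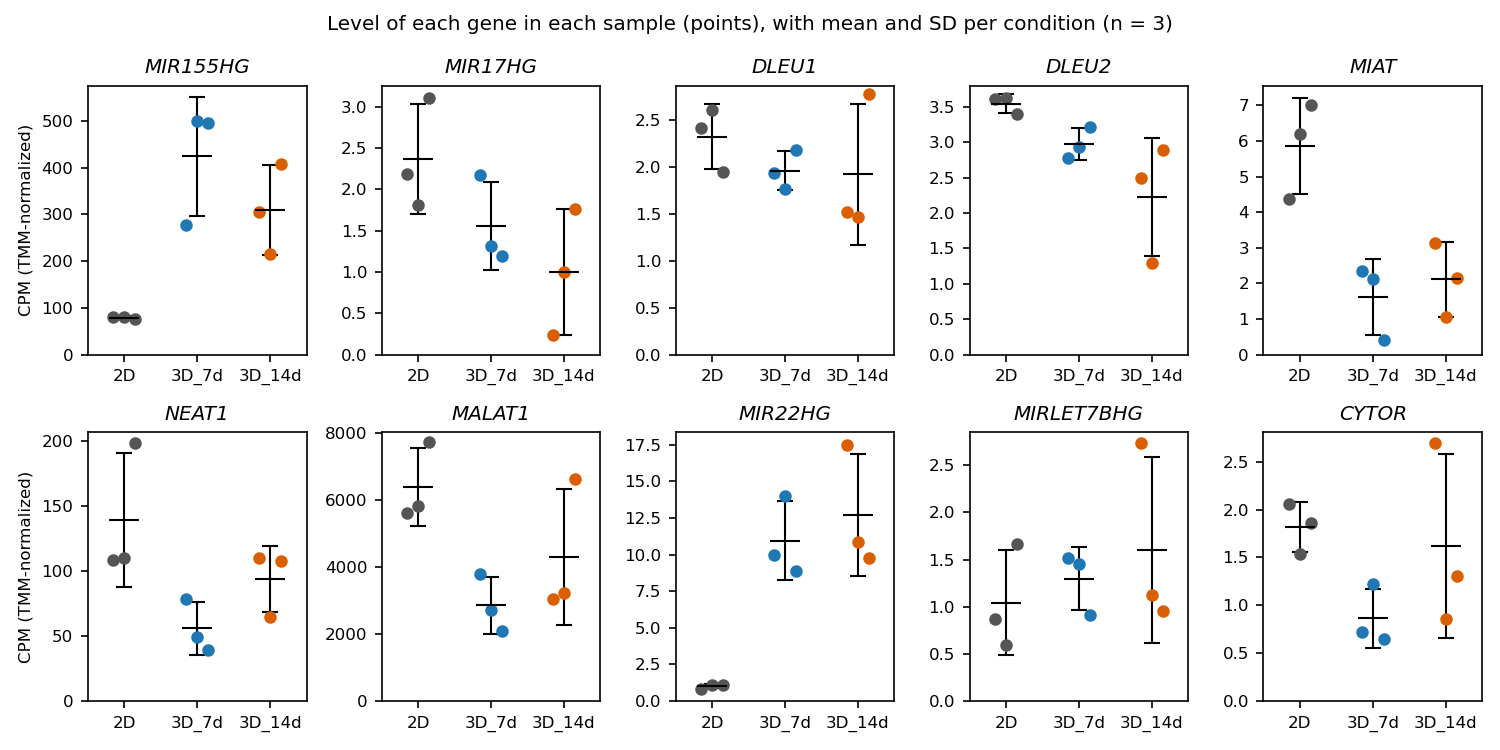
TMM-normalized CPM of each of the 10 genes (vertical axes, linear and starting at 0) in the 2D, 3D_7d and 3D_14d samples; points are samples, horizontal marks are means and bars are SD (n = 3). The 3D samples of MIR155HG (216 to 499 CPM) and MIR22HG (8.89 to 17.5 CPM) all lie above the 2D samples, whereas the 3D samples of MIAT all lie below them.

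MIR155HG, the host of miR-155, lies at chr21:25561909-25575168 on the plus strand of GRCh38 and has 1600 exonic bases. Its level in the 2D samples was 79.8, 80.9 and 75.8 CPM, 78.9 ± 2.67 (SD, n = 3). At day 7 it was 277, 499 and 495 CPM, 424 ± 127 (SD, n = 3), and at day 14 it was 306, 216 and 408 CPM, 309.7 ± 96.0 (SD, n = 3). The 2D samples were almost equal, all 6 bioprinted samples lay well above them, and the time points overlapped. The gene was 5.37-fold higher at day 7 (log2 fold change 2.43, SE 0.26, edgeR adjusted p = 2.41e-05) and 3.93-fold higher at day 14 (1.97, SE 0.25, edgeR adjusted p = 0.000117). From day 7 to day 14 the log2 difference was -0.45 (SE 0.24, edgeR adjusted p = 0.179). Without replicate 1 of 3D_7d, which had the lowest level at that time, this difference was -0.68 and passed the threshold with an adjusted p of 0.0495, in a range of 0.0495 to 0.472 over the 16 alternatives. Its depth was high, with 4853 counts or more in every sample.

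The promoter of MIR155HG is shown because AP-1 factors are known regulators of this gene. The window at chr21:25561895-25562194 (GRCh38.p14, plus strand, RefSeq) spans 250 bases before and 50 after the RefSeq start of a transcript at position 25562145, which lies 236 bases after the first base of the counted gene, and capitals mark the match to the AP-1 motif TGANTCA:
MIR155HG: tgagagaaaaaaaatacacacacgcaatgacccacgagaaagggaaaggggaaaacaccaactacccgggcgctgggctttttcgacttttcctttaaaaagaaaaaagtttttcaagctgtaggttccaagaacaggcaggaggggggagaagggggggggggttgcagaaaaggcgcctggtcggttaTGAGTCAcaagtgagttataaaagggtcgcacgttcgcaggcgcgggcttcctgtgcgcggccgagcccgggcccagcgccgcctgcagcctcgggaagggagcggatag
Motifs of AP-1, of E-box factors (CACGTG), of NF-kB and of CREB (the CRE) were searched on both strands, a choice made after the sequences had been seen. Among 35116 promoter windows of this length in RefSeq, 7.71% held the AP-1 letters, 7.26% the E-box, 1.91% the NF-kB letters and 1.85% the CRE. Windows were available for 9 of the 10 genes, all but NEAT1. The AP-1 letters occurred in the windows of MIR155HG, starting 60 bases before that start and inside the counted gene, and of CYTOR, with 2 matches, and the E-box in 1 window of DLEU2. A match is only a description of these letters. Of the AP-1 genes, JUN fell from 58.7 CPM in 2D to 15.6 CPM at day 7 and 16.1 CPM at day 14 (log2 fold change -1.92, SE 0.17, edgeR adjusted p = 8.53e-06 at day 7, and -1.87, SE 0.17, adjusted p = 1.41e-05 at day 14). JUNB (-0.76 and -0.60, adjusted p = 0.000372 and 0.00228) and FOS (-1.59 and -1.53, adjusted p = 0.000198 and 0.00034) were also lower at both times. FOSL2 was lower at day 7 only (-1.83, adjusted p = 0.00231), JUND was higher at day 14 only (1.05, adjusted p = 0.0274, a call lost in 5 of the 16 alternatives), and FOSB and FOSL1 were called at neither time.

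MIR22HG hosts miR-22 and lies at chr17:1711493-1717174 on the minus strand, with 2986 exonic bases. In 2D it was barely expressed, with 0.855, 1.11 and 1.08 CPM (52, 103 and 82 counts). The bioprinted samples had 9.94, 14.0 and 8.89 CPM at day 7 (11.0 ± 2.71, SD, n = 3) and 17.5, 10.8 and 9.79 CPM at day 14 (12.7 ± 4.18, SD, n = 3). Every 3D sample exceeded every 2D sample, and the time points overlapped. With 10.8-fold at day 7 (log2 fold change 3.43, SE 0.30, edgeR adjusted p = 7.49e-06) and 12.5-fold at day 14 (3.64, SE 0.30, edgeR adjusted p = 8.69e-06) the gene had the largest fold change against 2D among the 10. By p-value it stood at rank 33 of 13463 genes at day 14. The calls of MIR22HG and of MIR155HG against 2D were kept in each of the 16 alternatives, at adjusted p-values up to 0.00152.

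MIR17HG, the primary transcript of the miR-17-92 cluster and a target of MYC, lies at chr13:91347820-91354579 on the plus strand. It had 2.19, 1.81 and 3.11 CPM in 2D, 2.17, 1.31 and 1.19 CPM at day 7 and 0.240, 1.01 and 1.76 CPM at day 14. All day 14 samples lay below the 2D samples, the lowest on 13 counts, whereas day 7 overlapped with 2D. The log2 fold change was -0.60 (SE 0.55, edgeR adjusted p = 0.403) at day 7 and -1.24 (SE 0.56, adjusted p = 0.104) at day 14, so that neither passed the threshold. Without replicate 3 of 3D_14d, the highest of its group, the day 14 value was -1.92 with an adjusted p of 0.0305, in a range of 0.0305 to 0.255 over the alternatives. MYC itself had 458 CPM in 2D, 92.7 CPM at day 7 and 108 CPM at day 14 (log2 fold change -2.30, SE 0.21, edgeR adjusted p = 8.69e-06, and -2.09, adjusted p = 2.1e-05).

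MIRLET7BHG, which carries let-7a-3 and let-7b at chr22:46085997-46113928, was close to the filter on expression. Its counts ranged from 48 to 148, and its level was 0.872, 0.592 and 1.67 CPM in 2D, 1.52, 1.46 and 0.910 CPM at day 7 and 2.73, 1.12 and 0.951 CPM at day 14. The 3 conditions overlapped. Neither difference from 2D passed the threshold (log2 fold change 0.31, SE 0.51, edgeR adjusted p = 0.65 at day 7, and 0.62, SE 0.51, adjusted p = 0.37 at day 14).

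DLEU2 and DLEU1 run in opposite directions at 13q14. DLEU2 lies at chr13:49956670-50125720 on the minus strand and DLEU1 at chr13:50082169-50906856 on the plus strand, and the RefSeq promoter window of DLEU1 shares 227 bases with 1 of the 2 windows of DLEU2. DLEU2 had 3.62, 3.63 and 3.40 CPM in 2D, 2.78, 2.93 and 3.22 CPM at day 7 and 2.49, 1.29 and 2.89 CPM at day 14. All 6 bioprinted samples were below the 2D samples, by a margin that edgeR did not call (log2 fold change -0.25, SE 0.32, adjusted p = 0.548 at day 7, and -0.67, SE 0.32, adjusted p = 0.119 at day 14). DLEU1 had 2.42, 2.61 and 1.94 CPM in 2D, 1.93, 1.77 and 2.18 CPM at day 7 and 1.51, 1.46 and 2.78 CPM at day 14. Its conditions overlapped, with log2 fold changes of -0.24 (SE 0.35, edgeR adjusted p = 0.6) and -0.27 (SE 0.35, adjusted p = 0.571). Both genes are long and thinly covered, with 68 to 337 counts for DLEU2 and 77 to 242 for DLEU1. TRIM13, a ubiquitin ligase gene transcribed against DLEU2, shares 346 exonic bases with it. It had 14.1 to 23.0 CPM over the 9 samples, and its log2 fold change was 0.17 (SE 0.21, edgeR adjusted p = 0.526) at day 7. Since the strand setting of the counting is not given in the sources used here, reads in the shared bases cannot be told apart.

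The list of 13q14 neighbours held 15 genes, of which 11 were tested. At day 7, 1 was higher and 3 were lower than in 2D, beside 22.2% and 21.2% of all tested genes. At day 14, 1 was higher and 2 were lower, beside 19.0% and 17.2%. The median log2 fold changes of the neighbours were -0.25 and -0.12. The lower genes were led by RNASEH2B, a subunit of ribonuclease H2, at 125 CPM in 2D, 68.3 CPM at day 7 and 59.5 CPM at day 14 (edgeR adjusted p = 0.000199 and 7.48e-05), with ARL11 at day 7 and KPNA3 at day 14, calls that were lost in 5 and 8 of the 16 alternatives. CAB39L was the higher gene at both times, with 12.4 CPM in 2D, 17.5 CPM at day 7 and 41.5 CPM at day 14, and its call at day 7 was lost in 7 of the 16 alternatives. With total counts alone, 0 of these neighbours were higher and 4 lower at day 7, and 1 was higher and 3 lower at day 14.

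**Figure D2:**
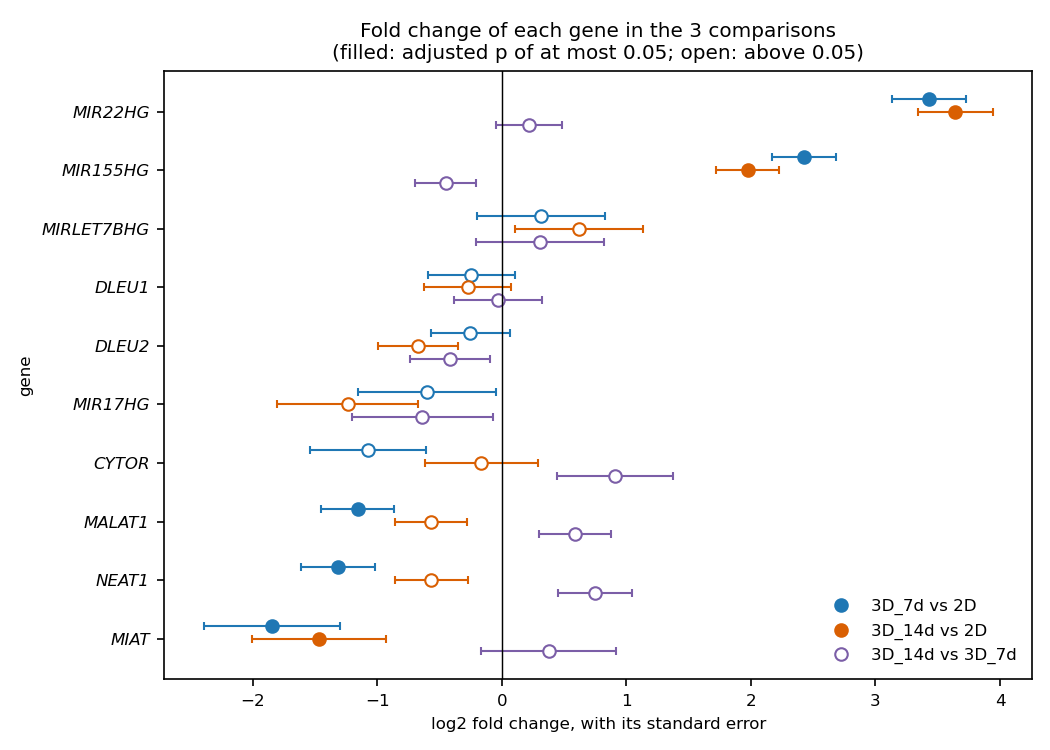
Log2 fold change of each of the 10 genes (vertical axis) for both times against 2D and for day 14 against day 7 (horizontal axis, bars are standard errors); filled points have an adjusted p of at most 0.05. MIR22HG and MIR155HG stand at the right with values from 1.97 to 3.64 against 2D, and no point of 3D_14d vs 3D_7d is filled.

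NEAT1 lies at chr11:65422774-65445540 on the plus strand and is counted over 22767 exonic bases, in a row that does not separate its transcript forms. The paper names a low-input RNA protocol for the libraries. How fully this protocol captured each form of NEAT1 and of MALAT1 was not tested, so their rows may hold these RNAs only in part. The level of NEAT1 was 109, 110.3 and 198 CPM in 2D, 78.5, 49.7 and 39.4 CPM at day 7 and 109.8, 64.5 and 107.8 CPM at day 14. The day 7 samples all lay below 2D, the day 14 samples overlapped with both, and replicate 3 of 2D stood above the other 2D samples. At day 7 it was lower by a log2 fold change of -1.32 (SE 0.30, edgeR adjusted p = 0.00361), a call kept in all 16 alternatives. At day 14 the value was -0.57 (SE 0.30, adjusted p = 0.152), and between the time points it was 0.75 (SE 0.30, adjusted p = 0.0756). The latter passed the threshold in 5 of the 16 alternatives, with adjusted p-values of 0.00851 to 0.216 over all of them: 0.0271 with DESeq2, 0.00851 with no filter, 0.0463 without replicate 3 of 2D, 0.0277 without replicate 1 of 3D_7d and 0.0323 without replicate 2 of 3D_14d.

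MALAT1, at chr11:65497688-65506516 near NEAT1, was by far the most abundant of the 10 genes and took 0.597 to 0.862% of all counts in 2D. It had 5613, 5801 and 7716 CPM in 2D, 3776, 2705 and 2095 CPM at day 7 and 3049, 3205 and 6619 CPM at day 14. As with NEAT1, the day 7 samples were all below 2D, and at day 14 a single sample, here replicate 3, reached the 2D range. The log2 fold change was -1.16 at day 7 (SE 0.29, edgeR adjusted p = 0.00674, called in all 16 alternatives) and -0.57 at day 14 (SE 0.29, adjusted p = 0.141). Without replicate 3 of 3D_14d, the day 14 value was -1.03 with an adjusted p of 0.00714, and with no filter it was -0.64 with an adjusted p of 0.0355, in a range of 0.00714 to 0.353. Its antisense transcript TALAM1 had no row in the table and was not analysed here.

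MIAT, a long noncoding RNA first described in heart tissue and also expressed in lymphoid cells, lies at chr22:26646452-26676475 on the plus strand. It had 4.38, 6.19 and 7.00 CPM in 2D, 2.35, 2.13 and 0.398 CPM at day 7 and 3.14, 1.04 and 2.15 CPM at day 14. Each bioprinted sample was below each 2D sample, and the lowest, replicate 3 of 3D_7d, rested on 21 counts. At day 7 the log2 fold change was -1.85 (SE 0.55, edgeR adjusted p = 0.0159), called in all 16 alternatives. At day 14 it was -1.47 (SE 0.54, adjusted p = 0.0487), and this call held in 8 of the 16 alternatives, with adjusted p-values from 0.00059 to 0.141. It was lost without replicate 1, 2 or 3 of 2D (0.0586, 0.104 and 0.131), without replicate 1 or 2 of 3D_7d (0.053 and 0.0537), without replicate 2 or 3 of 3D_14d (0.141 and 0.11) and with filterByExpr (0.0543). MIAT shares 28.1% of its exonic bases with other annotated genes, most of them with the antisense gene Z99774.1, which had at most 41 counts. MIATNB, which overlaps 221 bases on the same strand, had 3.53 to 5.80 CPM and a log2 fold change of 0.091 at day 7 (SE 0.23, edgeR adjusted p = 0.779).

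CYTOR, a long noncoding RNA also called LINC00152, lies at chr2:87454781-87630751 on the plus strand. It had 2.06, 1.54 and 1.86 CPM in 2D, 0.725, 1.22 and 0.645 CPM at day 7 and 2.70, 0.854 and 1.31 CPM at day 14. The day 7 samples were below 2D and the day 14 samples overlapped with both. The log2 fold change of -1.07 at day 7 (SE 0.47, edgeR adjusted p = 0.0792) missed the threshold and passed it in 4 of the 16 alternatives, with adjusted p-values of 0.0189 to 0.201: 0.0461 with total counts alone, 0.0189 with only the 6 samples of the comparison, 0.0287 without replicate 1 of 3D_14d and 0.0483 without replicate 2 of 3D_14d. At day 14 it was -0.17 (SE 0.45, adjusted p = 0.803). CYTOR has a near-identical copy, MIR4435-2HG, and reads that match both copies cannot be told apart, so both values are uncertain. The copy had 13 to 102 counts, with 0.905 to 1.34 CPM in 2D, 0.237 to 0.466 CPM at day 7 and 0.569 to 1.26 CPM at day 14, and it was lower at day 7 (log2 fold change -1.68, SE 0.48, edgeR adjusted p = 0.0132, a call lost in 2 of the alternatives).

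Without overlap between samples, 2 of the 10 genes were higher and 5 lower at day 7 than in 2D, and 2 were higher and 3 lower at day 14. Of all 13463 tested genes, 32.2% were higher and 32.4% lower without overlap at day 7, and 24.2% and 25.5% at day 14. Those without overlap that edgeR did not call were DLEU2 and CYTOR at day 7 and DLEU2 and MIR17HG at day 14. All 10 genes overlapped between day 7 and day 14, where 18.9% of all genes were higher and 20.5% lower without overlap.

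Levels were compared between genes per length, as RPKM (CPM per kilobase of exon). In 2D the order was led by MALAT1 with a mean of 916 RPKM, followed by MIR155HG with 49.3, NEAT1 with 6.11, MIR17HG with 0.695 and MIAT with 0.543. DLEU2 (0.366), MIR22HG (0.339), MIRLET7BHG (0.221), CYTOR (0.143) and DLEU1 (0.130) closed it. The ranges of neighbours overlapped between MIR17HG and MIAT, DLEU2 and MIR22HG, MIR22HG and MIRLET7BHG, MIRLET7BHG and CYTOR, and CYTOR and DLEU1, and those of the other neighbours did not. In the 3D samples, MIR22HG moved up to place 3, with a mean of 3.67 RPKM at day 7 and 4.26 RPKM at day 14, beside 2.45 and 4.13 RPKM of NEAT1, whose range it overlapped at both times. MIR155HG came closer to MALAT1 at day 7, with 265 RPKM beside 410.5, and its highest sample (312 RPKM) passed the lowest of MALAT1 (301 RPKM). At day 14 the means were 194 and 616 RPKM. Per length, MIR155HG stood at rank 1480 of the 13463 tested genes in 2D, at rank 204 at day 7 and at rank 383 at day 14.

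**Figure D3:**
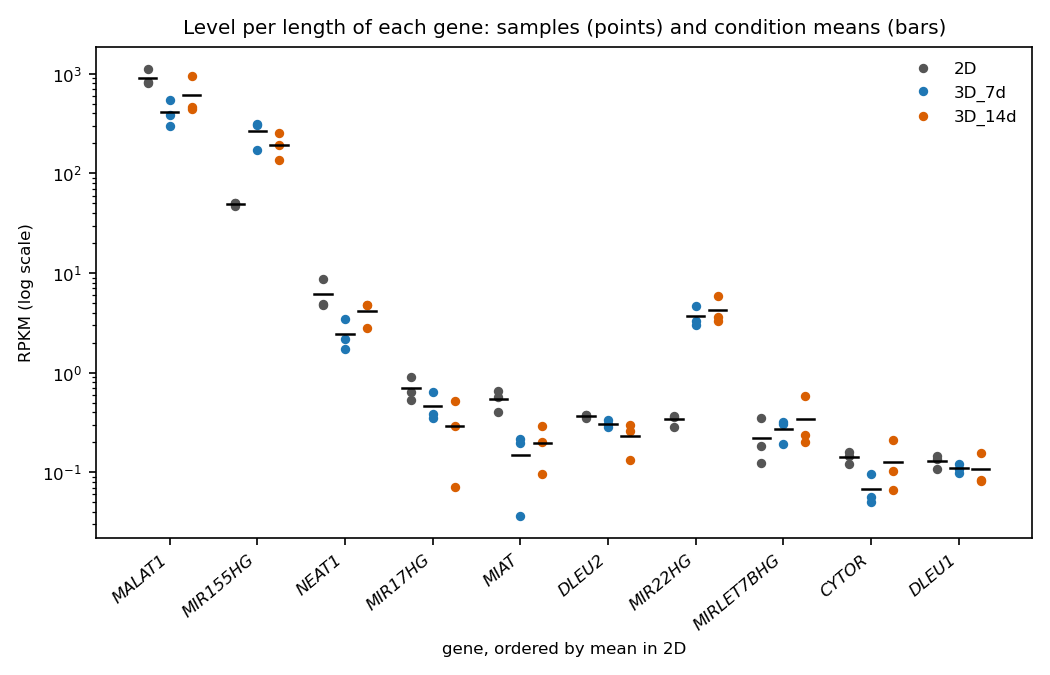
RPKM of each gene (log vertical axis) in every sample (points) with condition means (bars), genes ordered by their mean in 2D. The samples span 0.0369 to 1108 RPKM, and MIR22HG is the gene that changes its place most, from 0.339 RPKM in 2D to 4.26 RPKM at day 14.

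The genes that process microRNAs changed in both directions. Of 15 tested, 6 were higher and 3 lower at day 7 (median log2 fold change 0.032), beside 22.2% and 21.2% of all tested genes. At day 14, 4 were higher and 1 lower (median 0.22), beside 19.0% and 17.2%. At day 14 the counts were 2 higher and 3 lower with total counts alone, with a median of 0.019. At day 7, DGCR8, the partner of DROSHA, went from 4.89 CPM in 2D to 21.3 CPM (log2 fold change 2.12, SE 0.21, edgeR adjusted p = 1.52e-05), and XPO5, the exporter of hairpins, from 31.6 to 85.7 CPM (1.44, SE 0.16, adjusted p = 3.01e-05), while DDX17, a helicase gene, was lower (-0.56, adjusted p = 0.043), a call lost in 7 of the 16 alternatives. AGO2, the slicing Argonaute, was lower at day 7 (38.1 to 18.8 CPM, adjusted p = 0.000306), and DICER1 was lower at both times (32.6 CPM in 2D, 22.9 CPM at day 7, 18.9 CPM at day 14, adjusted p = 0.0277 and 0.00346), with the day 7 call lost in 4 of the 16 alternatives. At day 14 the smallest p-values among higher genes were those of the helicase gene DDX5 (695 to 1039 CPM, adjusted p = 0.00345) and of AGO1 (16.2 to 25.4 CPM, adjusted p = 0.00555), and both were also higher at day 7.

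Paraspeckle proteins, which bind NEAT1, were all 16 tested. At day 7, 6 were higher and 1 lower than in 2D, beside 22.2% and 21.2% of all tested genes. At day 14, 0 were higher and 4 lower, beside 19.0% and 17.2%. The median log2 fold changes were 0.29 and -0.0091. RBM14 (106 to 289 CPM, edgeR adjusted p = 0.000121) and EWSR1 (459 to 788 CPM, adjusted p = 0.000831) led the higher genes at day 7. TAF15 was lower at both times, with 20.2 CPM in 2D, 10.6 CPM at day 7 and 11.1 CPM at day 14 (adjusted p = 0.00473 and 0.00941), and NONO, a core paraspeckle protein, was lower at day 14 (373 to 257 CPM, adjusted p = 0.0107). The 0 higher at day 14 is a count by edgeR, and it was also 0 with DESeq2's size factors and with total counts alone. With the latter, 4 were higher and 1 lower at day 7.

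Around NEAT1 and MALAT1 on chromosome 11, 15 neighbouring genes were tested. At day 7, 6 of these neighbours were higher and 0 lower, beside 22.2% and 21.2% of all tested genes. At day 14, 9 were higher and 0 lower, beside 19.0% and 17.2% of all tested genes. The median log2 fold changes of the neighbours were 0.29 and 0.73. Both counts of 0 were the same with DESeq2's size factors and with total counts alone, where 5 and 7 were higher. CAPN1, which encodes calpain 1, had 196 CPM in 2D, 406 CPM at day 7 and 378 CPM at day 14 (edgeR adjusted p = 0.000118 and 0.000323). PCNX3 led at day 7 (16.6 to 45.8 CPM, adjusted p = 7.07e-05) and was also higher at day 14, where FAM89B led (7.45 to 34.7 CPM, adjusted p = 0.000221).

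Lists of known targets were read as messages only, without the mature microRNAs. Of 20 tested targets of miR-155, 2 were higher and 3 lower at day 7, beside 22.2% and 21.2% of all tested genes. At day 14, 5 were higher and 1 lower, beside 19.0% and 17.2%. The median log2 fold changes were -0.10 and 0.057, beside a host gene that rose more than 3-fold. With total counts alone, 2 targets were higher and 4 lower at day 7 and 3 higher and 1 lower at day 14. INPP5D, encoding the phosphatase SHIP1, was higher at day 7 (294 to 626 CPM, adjusted p = 0.000428) and also at day 14, a call lost in 4 of the 16 alternatives, and SPI1, encoding PU.1, at day 14 (34.5 to 63.8 CPM, adjusted p = 0.000995). CEBPB was the lower target with the smallest p at day 7 (7.95 to 0.786 CPM, adjusted p = 0.000109), followed by TAB2 (adjusted p = 0.0246), and PELI1 was lower at day 14 (adjusted p = 0.0418), calls lost in 3 and 5 alternatives.

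Beside the target lists that follow, 22.2% of all tested genes were higher and 21.2% lower at day 7. At day 14 these shares were 19.0% and 17.2%. Among 18 tested targets of miR-17-92, 4 were higher and 3 lower at day 7 and 5 higher and 2 lower at day 14. The medians were 0.076 and 0.040, but with total counts alone 1 was higher and 2 lower at day 14 (median -0.15). BCL2L11, encoding BIM, was lower at day 7 (adjusted p = 0.00655). CYLD and PHLPP2 were higher at both times (CYLD at day 14 in all but 2 of the 16 alternatives), and E2F2 was lower at day 14 (22.5 to 10.5 CPM, adjusted p = 0.000652). Of 14 tested targets of miR-15a and miR-16, 4 were higher and 5 lower at day 7 and 5 higher and 5 lower at day 14 (medians -0.23 and -0.099), the latter 3 higher and 6 lower with total counts alone. BCL2, the target best known in CLL, had 146 CPM in 2D, 49.4 CPM at day 7 and 85.5 CPM at day 14 (log2 fold change -1.56, SE 0.18, adjusted p = 4.74e-05, and -0.77, adjusted p = 0.00546), while its relative MCL1 rose from 85.6 to 192 and 151 CPM (adjusted p = 7.85e-05 and 0.00108). CCND2 and BMI1 were higher at both times, with the day 14 call of CCND2 lost in 9 of the 16 alternatives. MYB was lower at both times and most so at day 14 (71.1 to 22.3 CPM, adjusted p = 1.4e-05). Of 16 tested let-7 targets, 3 were higher and 6 lower at day 7 and 3 higher and 7 lower at day 14 (medians -0.063 and -0.37), and with total counts alone 2 were higher at each time, with 6 and 7 lower. HRAS was higher at both times, CDC34 was lower at day 7 and higher at day 14, and TRIM71 was lower at day 7. RRM2, a subunit of ribonucleotide reductase, was lower at day 14 (366 to 109 CPM, adjusted p = 0.000109), as was CDK6 (adjusted p = 0.000537), which was also lower at day 7.

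**Figure D4:**
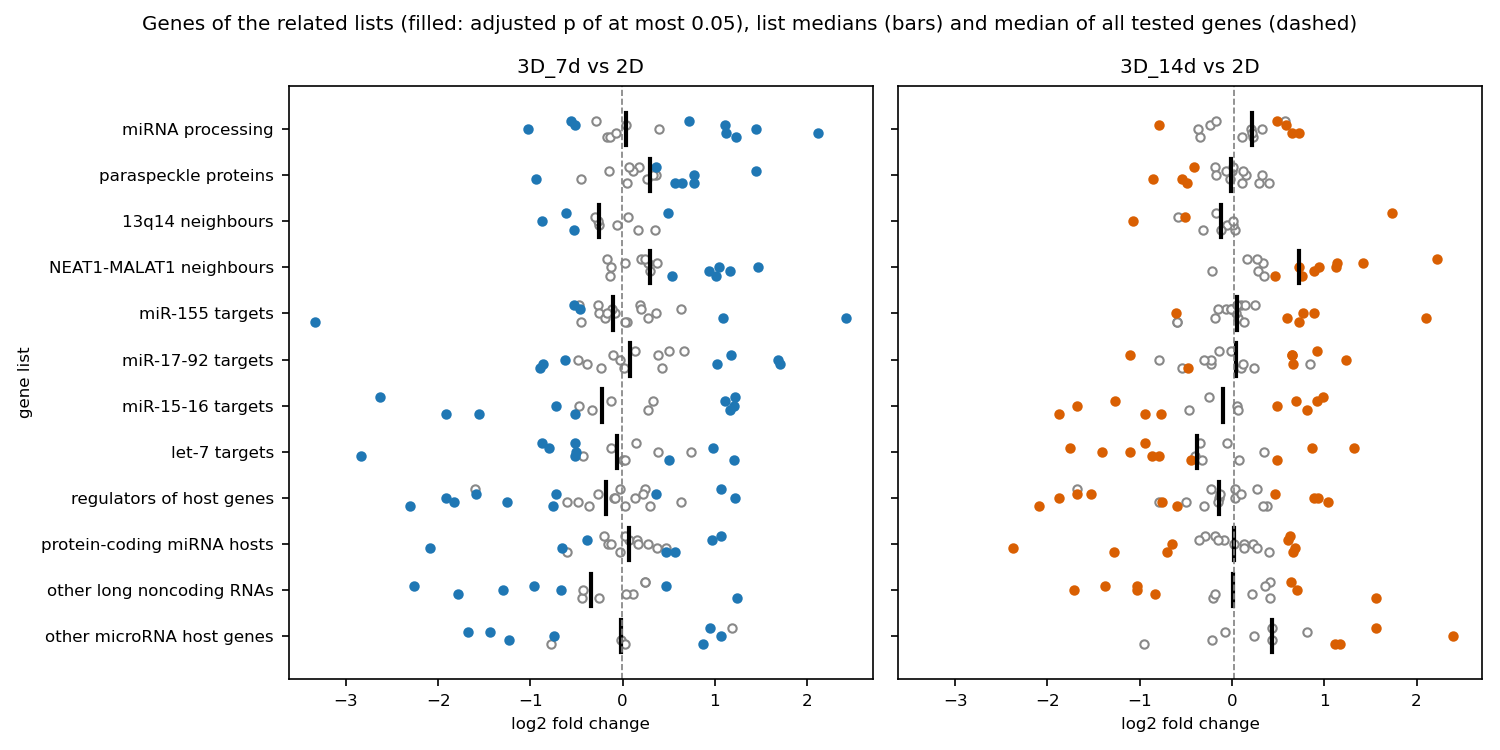
Log2 fold change of the tested genes of each related list (vertical axis) in 3D_7d vs 2D and 3D_14d vs 2D (horizontal axes); filled points have an adjusted p of at most 0.05, bars are list medians and the dashed line is the median of all 13463 tested genes. The neighbours of NEAT1 and MALAT1 lie mostly to the right at day 14, with a median of 0.73.

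For the lists of regulators, hosts and other long noncoding RNAs, the shares of all tested genes were again 22.2% higher and 21.2% lower at day 7. At day 14 they were 19.0% and 17.2%. Regulators of the host genes were represented by 24 tested genes. Of these, 3 were higher and 7 lower at day 7 and 4 higher and 6 lower at day 14 (medians -0.18 and -0.14). With total counts alone, 2 were higher at each time, with 7 and 6 lower. Beside MYC and JUN, MYB was among the lower genes, and IRF4, a factor of B-cell activation, was higher at day 7 (385 to 806 CPM, edgeR adjusted p = 0.000717). Other genes that host microRNAs showed no single direction at day 7. Of 60 further symbols of the form MIR...HG, 11 were tested, and 3 were higher and 4 lower at day 7, while 4 were higher and 0 lower at day 14, a 0 that also held with DESeq2's size factors and with total counts alone. MIR181A2HG was higher at both times (4.76 CPM in 2D, 9.96 CPM at day 7 and 25.1 CPM at day 14, adjusted p = 0.0052 and 4.67e-05), as were MIR3142HG and MIR193BHG, and MIR600HG and MIR3681HG were lower at day 7. Of 19 protein-coding hosts, 4 were higher and 3 lower at day 7 and 4 higher and 4 lower at day 14 (medians 0.073 and 0.026). With total counts alone, 2 were higher and 4 lower at day 7 and 1 was higher and 6 lower at day 14. SMC4, the host of miR-15b and miR-16-2, fell from 212 CPM in 2D to 49.9 and 40.9 CPM (adjusted p = 1.48e-05 and 1.08e-05), MCM7, the host of miR-106b-25, was lower at day 14 (854 to 353 CPM, adjusted p = 0.000176), and DNM2, WWP2 and COPZ1 were higher at both times. COPZ2 was lower at day 7 and higher at day 14, calls lost in 7 and 9 of the 16 alternatives, as were those of COPZ1 at day 7 in 7, WWP2 at day 14 in 5 and DNM2 at day 14 in 4. Of 14 other long noncoding RNAs, chosen by name, 2 were higher and 5 lower at day 7 and 3 higher and 5 lower at day 14 (medians -0.34 and 0.013), and with total counts alone 0 and 2 were higher, with 7 and 5 lower. LINC-PINT was lower at both times (26.6 CPM in 2D, 5.56 CPM at day 7 and 10.3 CPM at day 14, adjusted p = 3.14e-05 and 0.00093), as were LINC00926 and OIP5-AS1. HCP5 was higher at day 7, HOTAIRM1 at both times and PSMB8-AS1 at day 14, and the day 7 calls of HCP5 and HOTAIRM1 were each lost in 7 of the 16 alternatives.

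Genes whose log2 CPM followed a member most closely were ranked by Pearson r over the 9 samples, as a description that includes the differences between the 3 conditions. MIR155HG was followed by JKAMP (r = 0.986), SZRD1 (0.985) and LINC01252 (0.984), and MIR22HG by AC078925.4 (0.993), PHF23 (0.990) and MARCH2 (0.988). PHF23 and MARCH2 went from 16.3 and 14.3 CPM in 2D to 51.2 and 44.7 CPM at day 14. For NEAT1 the closest genes were ANKIB1 (0.981), AC126323.6 (0.975) and AC116158.3 (0.968), for MALAT1 OTUD4 (0.977), GPR35 (0.974) and FNDC3A (0.973), and for MIAT LINC00173 (0.986), DPY19L2 (0.968) and COL1A1 (0.956). The mean levels of these genes were lowest at day 7. DLEU2 was followed by SLC38A6 (0.984), AC104232.3 (0.982) and C2orf69 (0.956), DLEU1 by TMEM267 (0.941), CLDN12 (0.938) and VPS37C (0.920), and MIR17HG by PRKD3 (0.973), SLMAP (0.969) and RPA4 (0.967). MIRLET7BHG was followed by AL158152.1 (0.943), ZHX3 (0.933) and NNAT (0.922), and CYTOR by FRG1CP (0.980), GKAP1 (0.958) and METRNL (0.955). Among the members themselves, the pairs with the highest r over the 9 samples were MIR155HG with MIR22HG (0.921) and NEAT1 with MALAT1 (0.878).

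**Figure D5:**
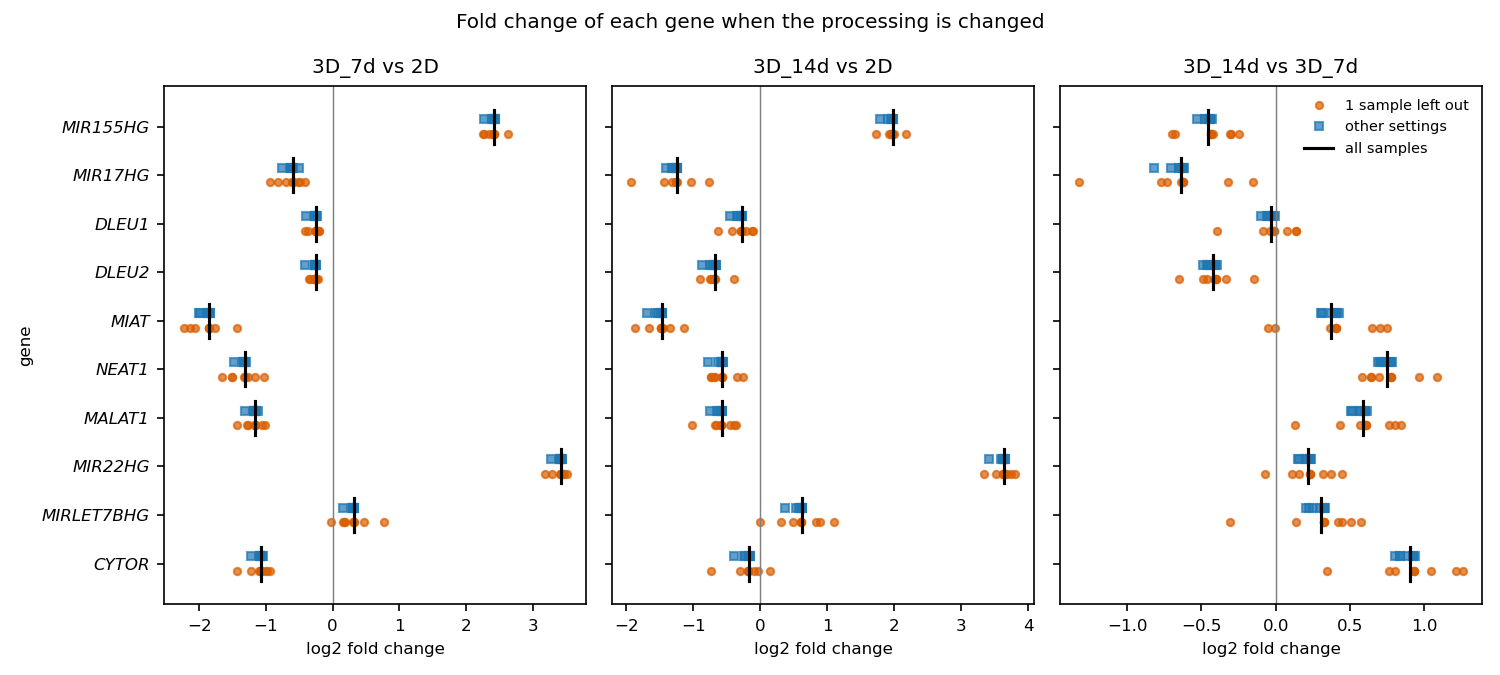
Log2 fold change of each gene (horizontal axes, with their own scale in each panel) with all samples (black bars), with 1 sample left out (circles) and under the other settings (squares). MIR155HG and MIR22HG stay far from 0 against 2D, while in 3D_14d vs 3D_7d the values of MIRLET7BHG, DLEU1, MIAT and MIR22HG fall on both sides of 0 when a sample is left out.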

How the data were processed

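RNA of 9 samples of the MEC1 cell line was analysed, 3 per condition (2D, 3D_7d, 3D_14d). The authors used Trimmomatic 0.39 for trimming and STAR 2.5.3a for alignment to GRCh38, and deposited 1 table of gene count values from featureCounts 1.6.4, with coordinates and the exonic length of each gene as other columns. Genes that passed the filter on expression were scaled by TMM. They were tested in 1 quasi-likelihood fit of the 9 samples with edgeR 4.0.16 in R 4.3.3. The prior count was 2, and the threshold was a Benjamini-Hochberg adjusted p-value of at most 0.05. RPKM divided TMM-scaled CPM by the deposited length. Python 3.11.15, pandas 2.3.3 and matplotlib 3.10.9 made summaries and figures, and DESeq2 1.42.0 was among the 16 alternatives. The procedure was tested on simulated counts. Within each list, up to 2 called genes with the smallest p-values in each direction and comparison with 2D were named, except for some that are not reported here, and other genes were chosen after their values were seen. The 10 genes and the lists were chosen with earlier results of these data known. MicroRNA and promoter sequences were taken from RefSeq.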

Additional observations from a re-analysis of the deposited data

Results flagged for a closer look

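For 45 of 110 tested genes named beside the 10 members (40.9%, beside 28.1% of all 13463 tested genes), the effects of 3D culture at day 14 and at day 7 against 2D differed from each other by a test of that difference (3D_14d vs 3D_7d, edgeR adjusted p from 0.000228 to 0.0459), which drew attention to them, and none of the 10 members was among them. Many of these genes were named for small p-values against 2D, so the shares are not those of a random set. The values are log2 differences, positive where the level was higher at day 14. Among genes of microRNA processing they were DROSHA (-1.12), DGCR8 (-1.40), XPO5 (-1.24), AGO2 (0.65), DDX5 (-0.53) and AGO1 (-0.47), and among paraspeckle proteins RBM14 (-1.33), EWSR1 (-0.67) and NONO (-0.80). Neighbours on chromosomes 13 and 11 were CAB39L (1.25), KPNA3 (-0.57) and FAM89B (2.02). Known targets of the microRNAs were CEBPB (2.74), TAB2 (0.67), SPI1 (0.97), CYLD (-0.53), BCL2L11 (0.64), E2F2 (-1.48), CCND2 (-0.72), BCL2 (0.79), MYB (-0.95), TRIM71 (2.43), CDC34 (1.66) and RRM2 (-1.62), and IRF4 (-1.04), JUND (1.65) and FOSL2 (1.33) are regulators. Other hosts were COPZ2 (1.34), MCM7 (-1.25), MIR181A2HG (1.33), MIR600HG (1.02), MIR3681HG (0.98) and MIR4435-2HG (1.61), and other long noncoding RNAs were LINC00926 (0.95), LINC-PINT (0.88) and PSMB8-AS1 (0.40). The markers were MS4A1 (-0.51), CD79A (1.06), CD79B (1.32), CD74 (0.56), CD37 (1.31), PECAM1 (0.61) and PDGFRB (2.20). AC116158.3 (1.39), close to NEAT1 in its levels, and METRNL (1.39), close to CYTOR, were the remaining genes.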

How the results depend on the processing

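Numbers of called genes, fold changes and calls of the 10 genes and calls of the named list genes were computed again under 16 alternatives, list counts under 2 other scalings, and the order by RPKM and the r values under none. Of the log2 fold changes of the 10 genes under them, 448 kept their direction and their side of the threshold, 14 came to pass it, 8 no longer passed it and 10 reversed. The calls of MIR155HG and MIR22HG in both comparisons with 2D, and of NEAT1, MALAT1 and MIAT at day 7, held under all 16. With total counts alone, 1604 genes were higher at day 14 than in 2D. With no filter, 5 of the 10 genes were called in 3D_14d vs 2D, 3 of them lower, and 1 in 3D_14d vs 3D_7d, which was higher. With filterByExpr, 0 were lower in 3D_14d vs 2D by edgeR, where MIAT had an adjusted p of 0.0543 in a range of 0.00059 to 0.141. DESeq2 called 1 in 3D_14d vs 3D_7d, which was higher. With only the 6 samples of the comparison, 2478 genes differed between the time points, 1122 of them lower. With 1 sample left out, the genes called in 3D_14d vs 2D numbered 3204 to 5308 (1564 to 2845 higher) and those in 3D_14d vs 3D_7d 2291 to 4328 (1193 to 2187 higher, 1092 to 2141 lower), and among the 10 genes 0 to 2 were lower in 3D_14d vs 2D and 0 to 2 were called in 3D_14d vs 3D_7d (0 to 1 higher, 0 to 1 lower). Reversals arose for differences that passed no threshold, where the lowest and highest log2 values with 1 sample left out were -0.020 and 0.77 for MIRLET7BHG in 3D_7d vs 2D. In 3D_14d vs 2D they were -0.0060 and 1.10 for MIRLET7BHG and -0.74 and 0.14 for CYTOR. In 3D_14d vs 3D_7d they were -0.39 and 0.14 for DLEU1, -0.053 and 0.75 for MIAT, -0.070 and 0.45 for MIR22HG and -0.31 and 0.58 for MIRLET7BHG. The samples concerned are replicate 2 of 2D, replicate 3 of 3D_7d and replicates 1 and 2 of 3D_14d, and the cause was not tested. In 3D_14d vs 2D, NEAT1 had an adjusted p of 0.0172 with no filter, in a range of 0.0172 to 0.555. For the genes named from the lists, 1717 of 1838 refits of 115 calls kept the call, 121 lost it, 0 reversed, and 25 calls were lost at least once.

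The sample titles end in the letters A, B and C, which were turned into replicate numbers here, and a replicate block was among the alternatives. Residuals of samples with the same number had a Pearson r from -0.1 to 0.185, not above 0.1 in every pair, so the unpaired fit was kept. In 3D_14d vs 2D, however, the r values of the same number were 0.185, 0.108 and 0.0931. Samples of different numbers there had lower values, from -0.135 to 0.0399. Whether the samples of that comparison were paired cannot be told from these values. With the replicate block, 5760, 4819 and 3683 genes were called at day 7 and at day 14 against 2D and between the time points, and 5, 3 and 0 of the 10 genes.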
